A study of Homo sapiens with 4 samples.

Results

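The 36 genes described here are the BCL2 family, the caspases, the apoptosome and mitochondrial release genes, the inhibitors of apoptosis with CFLAR, and the co-chaperones BAG1 and BAG3. They were taken by gene symbol from a table of read counts with 58051 genes, and all 36 were found in it. The measurement was RNA-seq of polyadenylated RNA, made into libraries that keep the strand, from IGROV1, an established human ovarian carcinoma cell line. The tested cells were 1 cisplatin-resistant line (CR, 2 libraries), and the comparison cells were the wild-type parent line (WT, 2 libraries). The CR line came from the WT line through 6 cycles over 5 months, each of 4 hours in cisplatin, a DNA-crosslinking platinum compound, and 3 weeks of recovery, with the concentration raised from cycle to cycle. Cells of both lines were harvested while dividing in drug-free medium, so the values describe the lines at rest from drug and not a response to it. There was 1 resistant line and 1 parent, and no label says that the 2 libraries of a line came from separate cultures, so the p-values measure only the spread between these libraries, which may be technical.

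Apoptosis through mitochondria is set by the BCL2 family. The effectors BAX and BAK1 open the outer mitochondrial membrane, the anti-apoptotic members hold them back, and the BH3-only proteins relay stress by binding the anti-apoptotic members or the effectors. Released cytochrome c then assembles with APAF1 into the apoptosome, which activates caspase-9 and through it the executioner caspases. Death receptors at the cell surface reach the same executioners through caspase-8 and caspase-10. The inhibitors of apoptosis restrain both routes, while CFLAR blocks caspase-8 at death receptors. Cisplatin is known to kill ovarian cancer cells in large part through apoptosis.

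The 4 libraries held 24727362 and 24008899 counts in CR cells and 23886257 and 24264458 counts in WT cells. Of the 36 genes, 34 had enough counts to be tested, and 6 of them fell in CR cells while 0 rose, by edgeR's quasi-likelihood test at an adjusted p of 0.05 over all 17304 genes tested. DESeq2 and limma-voom also called 6 lower and 0 higher, and at an unadjusted p under 0.05 the edgeR test gave 6 higher and 7 lower of the 34, with 26.1% of all genes under that p. Of the 34 apoptosis genes 17.6% were called, all of them lower. Over all genes tested 13.5% were called, 5.44% higher and 8.1% lower. The apoptosis genes were chosen with earlier results of these data known, so the difference between these shares was not tested. The median log2 fold change, CR minus WT, was -0.11 over the 34 genes and -0.01 over all genes tested. Both CR libraries lay below both WT libraries for 17 of the 34 genes, against 28.2% of all genes, and above them for 9, or 26.5%, against 27.0% of all genes. The 6 genes that fell were CASP10, CASP1, CASP4, BIK, CASP8 and BIRC3. The counts turned on single libraries: 7 of the genes were called higher and 15 lower without WT replicate 1, 10 and 13 without WT replicate 2, and 0 and 2 without CR replicate 1 or CR replicate 2. With a library left out, the spread is that of the line that keeps 2 libraries. The median absolute log2 ratio between replicates was 0.43 in WT cells and 0.16 in CR cells, over the 17236 tested genes with a length. Calls over all genes moved with the library left out too. Dropping WT replicate 1 gave 3589 higher and 3733 lower, and dropping WT replicate 2 gave 3864 and 4015. Dropping CR replicate 1 gave 537 and 883 and dropping CR replicate 2 gave 610 and 928, against 942 and 1402 with all 4 libraries. BCL2A1, an anti-apoptotic member, had 1 and 0 counts in CR cells and 0 and 1 count in WT cells, and CASP5 had 0 and 0 counts in CR cells and 0 and 1 count in WT cells, so neither was tested. CASP1 passed the low-count filter through its WT libraries alone, and BCL2L10 through its CR libraries alone, so a difference was built into their admission to the test. With the stricter filter, under which CASP1 was not tested, 5 genes were lower.

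**Figure D1:**
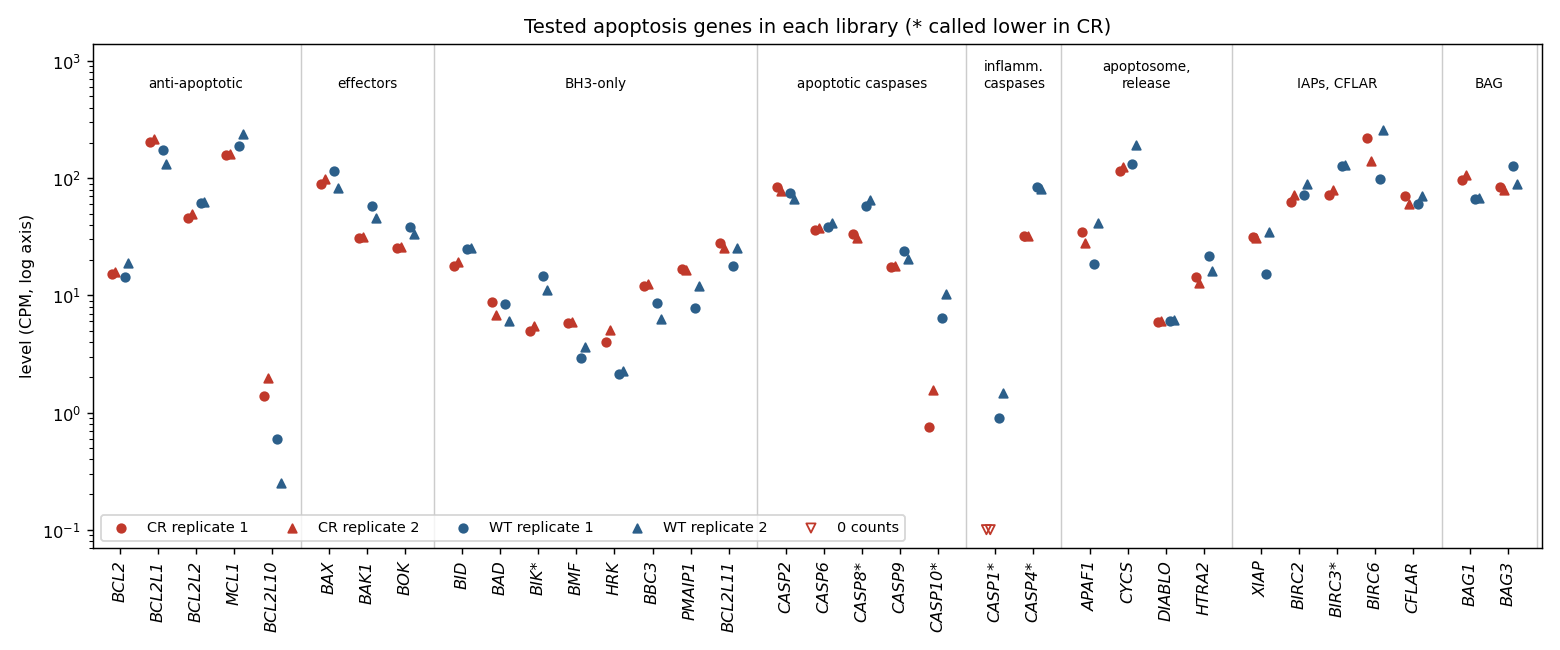
Level of each of the 34 tested genes in each library, in CPM (counts scaled to library size, log axis), grouped by role, with CR libraries in red to the left of WT libraries in blue and circles and triangles for replicates 1 and 2. The 6 starred genes have both CR points below both WT points, and the open triangles mark CASP1, with 0 counts in both CR libraries.

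The initiator caspases of the death receptor route were lower in CR cells. CASP10, which encodes the caspase-8 relative recruited to death receptors, had 0.756 and 1.55 CPM (counts scaled to library size with TMM factors) in CR cells, against 6.47 and 10.3 CPM in WT cells. The counts behind these levels were 19 and 38 in CR cells and 151 and 245 in WT cells, and the groups did not overlap. CASP10 fell by 2.85 on the log2 scale (95% interval -3.96 to -1.75, SE 0.465), which is 7.29-fold lower by summed counts (edgeR quasi-likelihood test, adjusted p = 0.00863). CASP8, the initiator that starts the cascade at death receptors, had 33.5 and 30.6 CPM in CR cells, against 57.9 and 65.3 CPM in WT cells. Its CR libraries were both below its WT libraries, and it was 1.92-fold lower, with a log2 fold change of -0.94 (95% interval -1.45 to -0.44, edgeR quasi-likelihood test, adjusted p = 0.0287). The call of CASP8 was lost without CR replicate 1 and without CR replicate 2. Its log2 fold change stayed between -1.03 and -0.86 over 12 alternative settings. The call of CASP10 held without either library of either line, and its log2 fold change was -2.42 without CR replicate 1 and -3.45 without CR replicate 2.

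The other caspases of apoptosis did not pass the test. CASP9, the initiator activated by the apoptosome, had 17.5 and 17.8 CPM in CR cells and 24.03 and 20.4 CPM in WT cells. Its log2 fold change was -0.33 (95% interval -0.88 to 0.21, edgeR quasi-likelihood test, adjusted p = 0.435). It was called lower without WT replicate 2, and its log2 fold change ranged from -0.45 to -0.21 over 12 alternative settings. CASP6, an executioner, had the highest level per exon length of the 5 genes in WT cells, with 63.0 and 61.6 TPM (counts per kilobase of exon, scaled to the same sum in each library) in CR cells and 59.5 and 74.3 TPM in WT cells, and CASP2, the caspase of the PIDD1 platform, had a log2 fold change of 0.20 (adjusted p = 0.599, edgeR). In this class 2 of 5 genes fell, 0 rose and 3 did not pass, against 8.1% lower and 5.44% higher over all genes tested.

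The inflammatory caspases, which cut gasdermin D and, for caspase-1, the precursor of interleukin-1 beta, were low in CR cells where they could be measured. CASP4, the cytosolic sensor of lipopolysaccharide, had 32.2 and 31.9 CPM in CR cells, against 84.1 and 80.2 CPM in WT cells. The replicates of each line lay close together and the lines far apart. CASP4 was 2.56-fold lower, with a log2 fold change of -1.36 (95% interval -1.84 to -0.88, edgeR quasi-likelihood test, adjusted p = 0.00599). The CASP4 call was lost without CR replicate 1 and without CR replicate 2, where the spread is that of the WT libraries alone. Its log2 fold change stayed between -1.39 and -1.28 over 12 alternative settings. CASP1 had 0 counts in both CR libraries and 21 and 35 counts in the WT libraries, or 0.900 and 1.47 CPM. Set against a floor of 3 counts over the CR group, it was at least 19.6-fold lower, and the floor covers counting error only. Its adjusted p was 0.00862 (edgeR quasi-likelihood test), for a gene that the WT libraries alone admitted to the test.

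Of the genes that fell, the RefSeq table of promoters holds BIRC3 and CASP4 with 1 promoter each and CASP8 with 3, and the promoters of BIRC3 and CASP4 and the CASP8 one with a match are printed here. Each runs from 250 bases before to 50 bases after a transcription start, on build GRCh38.p14, read 5′ to 3′ on the gene's own strand. Capitals mark matches to an NF-kB motif, to the STAT motif GAS (TTCNNNGAA) or to the ISRE core (TTTC, any 2 bases, TTTC), searched on both strands. BIRC3 (chr11:102317234-102317533, + strand) has 2 NF-kB matches, the upstream CASP8 start (chr2:201233213-201233512, + strand) has 1 GAS match and 1 ISRE core match, and CASP4 (chr11:104968525-104968824, - strand) has none. The other 2 CASP8 promoters, chr2:201257785-201258084 and chr2:201260286-201260585, have 0 matches to these motifs.
BIRC3: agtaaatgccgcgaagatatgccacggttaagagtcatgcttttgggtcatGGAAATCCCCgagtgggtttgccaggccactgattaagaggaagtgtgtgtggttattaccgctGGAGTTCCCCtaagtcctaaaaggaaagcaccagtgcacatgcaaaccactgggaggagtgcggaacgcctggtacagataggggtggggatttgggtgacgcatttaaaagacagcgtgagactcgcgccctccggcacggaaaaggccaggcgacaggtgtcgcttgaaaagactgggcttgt
CASP8: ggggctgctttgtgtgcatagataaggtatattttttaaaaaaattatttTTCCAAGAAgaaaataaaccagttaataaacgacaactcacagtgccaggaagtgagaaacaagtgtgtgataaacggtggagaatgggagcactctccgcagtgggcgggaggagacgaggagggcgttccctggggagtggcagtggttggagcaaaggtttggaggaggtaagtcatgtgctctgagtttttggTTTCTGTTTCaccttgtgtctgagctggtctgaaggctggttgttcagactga
CASP4: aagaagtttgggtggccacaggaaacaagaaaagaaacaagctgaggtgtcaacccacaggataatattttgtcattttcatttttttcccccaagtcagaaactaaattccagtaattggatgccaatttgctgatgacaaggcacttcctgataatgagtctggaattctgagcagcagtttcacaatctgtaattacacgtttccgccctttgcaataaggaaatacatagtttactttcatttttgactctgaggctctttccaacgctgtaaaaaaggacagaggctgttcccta

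Of 35116 promoters in that table, 5.91% held the NF-kB motif, 7.66% the GAS motif and 3.57% the ISRE core. The table held 30 of the 36 genes, with 52 promoters, of which 4 had an NF-kB match, 3 a GAS match and 4 an ISRE core match. A match is a run of letters and was not tested as a site. Promoters of BCL2L10, BCL2L2, BIK, CASP1, CASP10 and MCL1 were not analysed here.

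Among the BH3-only genes BIK was the one that passed the test. BIK, which encodes a BH3-only protein of the endoplasmic reticulum, had 4.94 and 5.44 CPM in CR cells, against 14.7 and 11.1 CPM in WT cells, with no overlap. It was 2.48-fold lower, with a log2 fold change of -1.31 (95% interval -1.99 to -0.64, edgeR quasi-likelihood test, adjusted p = 0.0247). The BIK call was lost without CR replicate 1 and without CR replicate 2. Its log2 fold change stayed between -1.51 and -1.09 over 12 alternative settings. The class of 8 had 1 gene lower and 0 higher, against 8.1% lower and 5.44% higher over all genes tested. Its median log2 fold change was 0.52, against -0.01 over all genes tested. For 5 of the 8, BMF, HRK, BBC3, PMAIP1 and BCL2L11, both CR libraries lay above both WT libraries, against 27.0% of all genes tested, and none of these passed the test over all genes.

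BBC3, which encodes PUMA, a p53 target that binds every anti-apoptotic member, had 12.02 and 12.5 CPM in CR cells and 8.57 and 6.24 CPM in WT cells (log2 fold change 0.73, edgeR quasi-likelihood test, adjusted p = 0.154). PMAIP1, which encodes NOXA, the binder of MCL1, had 16.9 and 16.5 CPM in CR cells and 7.80 and 12.1 CPM in WT cells (log2 fold change 0.75, adjusted p = 0.161, edgeR). Both genes were steady between the CR libraries and spread between the WT libraries. HRK, best known from neurons, had a log2 fold change of 1.05 (adjusted p = 0.0998, edgeR), and BMF, a sensor of cytoskeletal stress, one of 0.84 (0.143). These 4 genes were called higher without WT replicate 1 and without WT replicate 2. In those fits the spread is that of the CR libraries, and calls over all genes also rose. Over 12 alternative settings the log2 fold change ranged from 0.46 to 1.10 for PMAIP1 and from 0.52 to 0.97 for BBC3. The range was 0.88 to 1.21 for HRK and 0.70 to 1.00 for BMF. BCL2L11, which encodes BIM, had 28.1 and 25.3 CPM in CR cells and 17.95 and 25.25 CPM in WT cells, so that its nearest libraries almost touched. Its log2 fold change was 0.31 (95% interval -0.30 to 0.91, adjusted p = 0.534, edgeR), and 0.57 without WT replicate 2. BID, the link that caspase-8 cuts, had a log2 fold change of -0.44 (adjusted p = 0.27, edgeR). Over 12 alternative settings that of BID ranged from -0.48 to -0.37. BAD, which growth factor signals switch off, had a log2 fold change of 0.11 (adjusted p = 0.878, edgeR). It turned to -0.12 without WT replicate 2 and -0.09 without CR replicate 1.

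**Figure D2:**
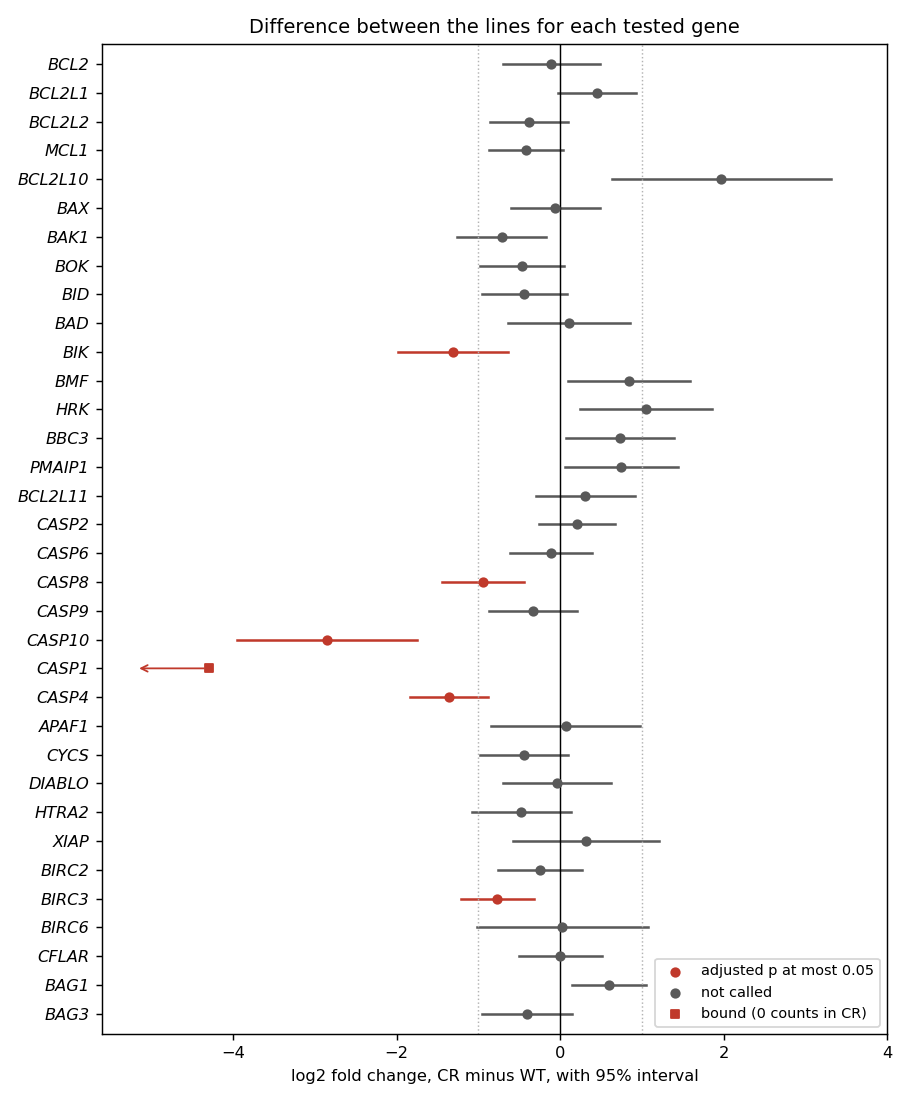
Log2 fold change, CR minus WT, of each tested gene with its 95% interval, in red where the adjusted p was at most 0.05 and grey where it was not, with dotted lines at a 2-fold change. The square with an arrow is the bound for CASP1, which had 0 counts in CR cells. The 6 red genes all lie left of 0, and BCL2L10 has the widest of the grey intervals.

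The anti-apoptotic members did not pass the test, in 0 of 5 tested genes by edgeR, DESeq2 and limma-voom, and 1 of them, BCL2L10, had an unadjusted p under 0.05. BCL2L1, which encodes BCL-XL, had 202 and 215 CPM in CR cells, against 174 and 132 CPM in WT cells. Both CR libraries were above both WT libraries, with a log2 fold change of 0.45 (95% interval -0.03 to 0.93, edgeR quasi-likelihood test, adjusted p = 0.222). MCL1, a short-lived protein that holds BAK1 in check, had 158 and 162 CPM in CR cells, against 190 and 238 CPM in WT cells, with a log2 fold change of -0.42 (95% interval -0.88 to 0.03, adjusted p = 0.226, edgeR). Without WT replicate 1, BCL2L1 was called higher at 0.65 and MCL1 lower at -0.58, and neither was called without WT replicate 2. The interval of each excludes a 2-fold change in either direction. BCL2, the founding member, had 15.1 and 15.8 CPM in CR cells and 14.4 and 18.8 CPM in WT cells, and the groups overlapped (log2 fold change -0.11, 95% interval -0.70 to 0.48, adjusted p = 0.848, edgeR). Its sign turned to 0.10 without WT replicate 2. BCL2L2, which encodes BCL-W, had a log2 fold change of -0.38 (adjusted p = 0.296, edgeR), and of -0.42 to -0.33 over 12 alternative settings. BCL2L10 was near the floor, with 35 and 48 counts in CR cells and 14 and 6 in WT cells, and had a log2 fold change of 1.97 (95% interval 0.63 to 3.31, adjusted p = 0.0682, edgeR). It was called higher with no low-count filter (edgeR adjusted p = 0.0144), without WT replicate 1 and without WT replicate 2. Its log2 fold change ranged from 1.47 to 2.71 over 11 alternative settings. Antisense to BCL2L1 lies ABALON, which overlaps 43.0% of its exon bases and had 4.38 and 2.99 CPM in CR cells and 1.93 and 3.35 CPM in WT cells.

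Of the effectors 0 of 3 passed by edgeR, DESeq2 and limma-voom, and 1, BAK1, had an unadjusted p under 0.05. BAK1 had 31.1 and 31.6 CPM in CR cells, against 57.7 and 45.4 CPM in WT cells, with no overlap. Its log2 fold change was -0.72 (95% interval -1.26 to -0.18, edgeR quasi-likelihood test, adjusted p = 0.0924). It was called lower without WT replicate 1 (log2 fold change -0.54) and without WT replicate 2 (-0.88). BAX had 89.4 and 98.9 CPM in CR cells, between the 114 and 81.9 CPM of WT cells. The lines differed by a log2 fold change of -0.06 (95% interval -0.60 to 0.48, adjusted p = 0.911, edgeR), which turned to 0.20 without WT replicate 1 and to 0.01 if CR replicate 1 was left out. BOK, a less studied effector, had a log2 fold change of -0.47 (adjusted p = 0.236, edgeR), and of -0.56 to -0.37 over 12 alternative settings. It was called lower without WT replicate 1 and without WT replicate 2.

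Levels of different genes can be set side by side only per length, so the make-up of the family is given in TPM, from counts per kilobase of exon. The anti-apoptotic members summed to 372 and 367 TPM in CR cells and 335 and 386 TPM in WT cells, so the totals overlapped. With the longest transcript as length they did not, at 349 and 347 TPM in CR cells and 309.8 and 345 TPM in WT cells. Of the first of these sums, per kilobase of exon, BCL2L1 made up 55.3% and 55.8% in CR cells, against 46.7% and 35.96% in WT cells. MCL1 made up 32.7% and 31.8% of it in CR cells, against 38.7% and 49.0% in WT cells. BCL2L1 thus led MCL1 in both CR libraries and in WT replicate 1, and MCL1 led in WT replicate 2. The effectors summed to 195.4 and 195.8 TPM in CR cells, against 252 and 224 TPM in WT cells, with BAX the most abundant in every library. The ratio of the anti-apoptotic sum to the effector sum was 1.91 and 1.87 in CR cells, against 1.33 and 1.72 in WT cells. Per kilobase of exon, the BH3-only genes summed to 106 and 97.7 TPM in CR cells and 107 and 115 TPM in WT cells. BIK made up 16.4% and 18.4% of that sum in CR cells, against 43.2% and 35.2% in WT cells, and PMAIP1 23.97% and 23.9% in CR cells, against 9.75% and 16.5% in WT cells. BIK was therefore the most abundant BH3-only transcript of WT cells and PMAIP1 that of CR cells, with no test of these shares.

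**Figure D3:**
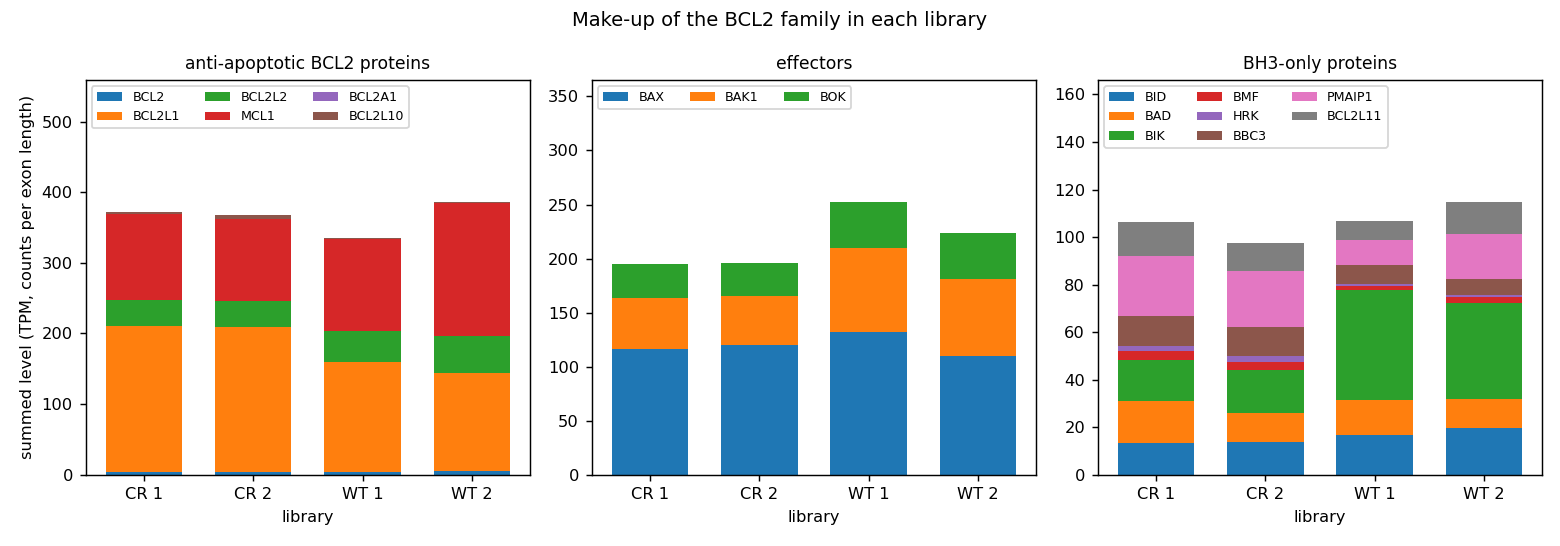
Summed level in TPM (counts per exon length, y axis from 0) of the anti-apoptotic members, the effectors and the BH3-only genes in each library, with CR libraries left of WT libraries and 1 colour per gene. The anti-apoptotic bars are of like height in both lines, the effector bars are lower in CR, and the BIK segment is smaller in CR.

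The apoptosome and mitochondrial release genes did not pass the test, in 0 of 4 genes by edgeR, DESeq2 and limma-voom, and 0 had an unadjusted p under 0.05. APAF1, the scaffold of the apoptosome, had 34.8 and 27.8 CPM in CR cells, between the 18.4 and 41.2 CPM of WT cells. The log2 fold change of APAF1 was 0.07 (95% interval -0.84 to 0.98, edgeR quasi-likelihood test, adjusted p = 0.944). It turned with the library left out, to -0.40 without WT replicate 1, 0.77 without WT replicate 2 and -0.10 without CR replicate 1. CYCS, which encodes cytochrome c and was the most abundant of the 4 per length in WT cells, had 116 and 124 CPM in CR cells and 134 and 191 CPM in WT cells. CYCS had a log2 fold change of -0.44 (adjusted p = 0.288, edgeR) and was called lower without WT replicate 1 (log2 fold change -0.68). DIABLO and HTRA2, which encode mitochondrial proteins that relieve caspases of XIAP, had log2 fold changes of -0.04 (adjusted p = 0.964, edgeR) and -0.47 (0.315). The sign of DIABLO turned with the scaling, to 0.01 with upper quartile factors and 0.04 with a length offset. HTRA2 shares 36.9% of its exon bases with genes on the other strand, among them AUP1, which had 114 and 125 CPM in CR cells and 238 and 160 CPM in WT cells.

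Of the inhibitors of apoptosis and CFLAR, 1 of 5 genes fell and 0 rose, against 8.1% lower and 5.44% higher over all genes tested. BIRC3, which encodes cIAP2, a ubiquitin ligase of TNF receptor signalling and an NF-kB target, had 71.6 and 78.9 CPM in CR cells, against 127 and 129 CPM in WT cells, with no overlap. It was 1.71-fold lower, with a log2 fold change of -0.77 (95% interval -1.21 to -0.32, edgeR quasi-likelihood test, adjusted p = 0.0386). The BIRC3 call was lost without CR replicate 1 and without CR replicate 2. Its log2 fold change stayed between -0.83 and -0.69 over 12 alternative settings. BIRC2, which encodes cIAP1, had the highest mean of the class per exon-union length in WT cells, 57.9 TPM against 55.1 TPM for BIRC3, but lay under BIRC3 in WT replicate 1 and, with the longest transcript as length, in the mean (49.2 against 60.9 TPM). It had 63.3 and 72.4 CPM in CR cells and 71.6 and 89.6 CPM in WT cells. BIRC2 had a log2 fold change of -0.25 (adjusted p = 0.552, edgeR), and of -0.40 to -0.08 over 12 alternative settings. It was called lower without WT replicate 1. CFLAR, the inactive relative that blocks caspase-8 at death receptors, had 71.1 and 60.6 CPM in CR cells and 60.2 and 71.1 CPM in WT cells, with a log2 fold change of 0.00 (95% interval -0.50 to 0.51, adjusted p = 0.995, edgeR). It was -0.11 without WT replicate 1 and -0.12 without CR replicate 1.

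XIAP and BIRC6 differed more between the WT libraries than between the lines. XIAP, the inhibitor that binds caspases directly, had 31.7 and 30.6 CPM in CR cells, against 15.3 and 34.7 CPM in WT cells. The log2 fold change of XIAP was 0.32 (95% interval -0.58 to 1.21, edgeR quasi-likelihood test, adjusted p = 0.678), at -0.16 without WT replicate 1 and 1.02 without WT replicate 2. BIRC6, a very large ubiquitin ligase, had 222 and 141 CPM in CR cells and 99.3 and 257 CPM in WT cells. The log2 fold change of BIRC6 was 0.03 (95% interval -1.02 to 1.07, adjusted p = 0.984, edgeR), at -0.51 without WT replicate 1, 0.87 without WT replicate 2 and -0.34 without CR replicate 1. WT replicate 2 exceeded WT replicate 1 by 2.59-fold for BIRC6, 2.26-fold for XIAP and 2.24-fold for APAF1.

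These 3 genes have long transcripts, and length moved with the difference between replicates across all genes. Over the 17236 tested genes with a length, Spearman's rho between exon length and the log2 ratio of WT replicate 2 over WT replicate 1 was 0.27, and that with the ratio of CR replicate 2 over CR replicate 1 was -0.25, across genes that share the same libraries. Among the 34 apoptosis genes rho was 0.60 in WT and -0.22 in CR. The median of the WT ratio was -0.26 on the log2 scale for genes under 2 kb and 0.36 for genes over 10 kb. The part of length in the differences between the lines was not tested beyond an offset for length, under which 6 of the 34 genes were lower and 0 higher.

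**Figure D4:**
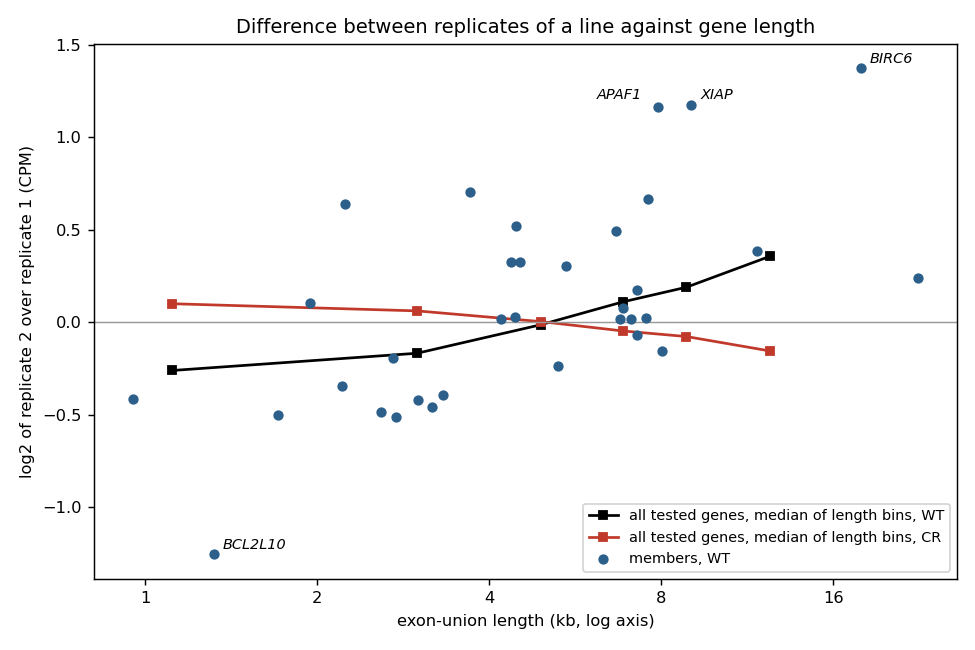
Log2 ratio of replicate 2 over replicate 1 (CPM) against exon length in kb (log axis). Black and red lines are medians of length bins over all tested genes in WT and CR, and blue points are the apoptosis genes in WT, of which BIRC6, XIAP and APAF1 lie highest and BCL2L10 lowest.

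The co-chaperones were not called, in 0 of 2 genes by edgeR, DESeq2 and limma-voom, and 1 had an unadjusted p under 0.05. BAG1, a BCL2-binding partner of HSP70, had 96.8 and 106 CPM in CR cells, against 66.6 and 67.5 CPM in WT cells, with no overlap. BAG1 had a log2 fold change of 0.60 (95% interval 0.14 to 1.05, edgeR quasi-likelihood test, adjusted p = 0.0959), and of 0.54 to 0.67 over 12 alternative settings. It was called higher without WT replicate 1 and without WT replicate 2. BAG3, which links HSP70 to selective autophagy and led this pair per length in WT cells, had 83.9 and 80.0 CPM in CR cells and 128 and 89.6 CPM in WT cells (log2 fold change -0.41, adjusted p = 0.34, edgeR). BAG3 was called lower without WT replicate 2 (log2 fold change -0.64). For 18 of the 34 genes, or 52.9%, the 95% interval lay within a 2-fold change in either direction, against 40.3% of all genes tested.

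Of the 6 genes that fell, 5 lie near other genes of the set on chromosomes 2 and 11. CFLAR, CASP10 and CASP8 are neighbours on chromosome 2 on the + strand, with 6.19 kb between CFLAR and CASP10 and 4.04 kb between CASP10 and CASP8 (GENCODE 29, GRCh38). CASP10 spans chr2:201182881-201229406 and CASP8 spans chr2:201233443-201287711, and CFLAR beside them was not called. On chromosome 11, BIRC3 (chr11:102317450-102339403) and BIRC2 are 7.81 kb apart, and CASP4 (chr11:104942866-104969436), CASP5 and CASP1 (chr11:105025443-105035250) form a separate group 2564 kb further on. Within 1000 kb of the chromosome 11 genes, 3 of the other 12 tested genes fell and 0 rose. These were MMP7, with 6 counts over the CR group and 3366 over the WT group, MMP10, with 0 and 45, and CARD16, with 1 and 193. CARD16 lies next to CASP1 and resembles part of it in sequence, so reads of the pair may not have been told apart. Around the chromosome 2 genes, 1 of the other 21 tested genes fell, SPATS2L, and 2 rose, CDK15 and FZD7. Over all genes tested 8.1% were called lower and 5.44% higher. MMP7, MMP10, CARD16 and CDK15 passed the low-count filter only through the line in which they were high. A difference was thus built into their admission to the test. The neighbours were looked at after their values were seen.

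**Figure D5:**
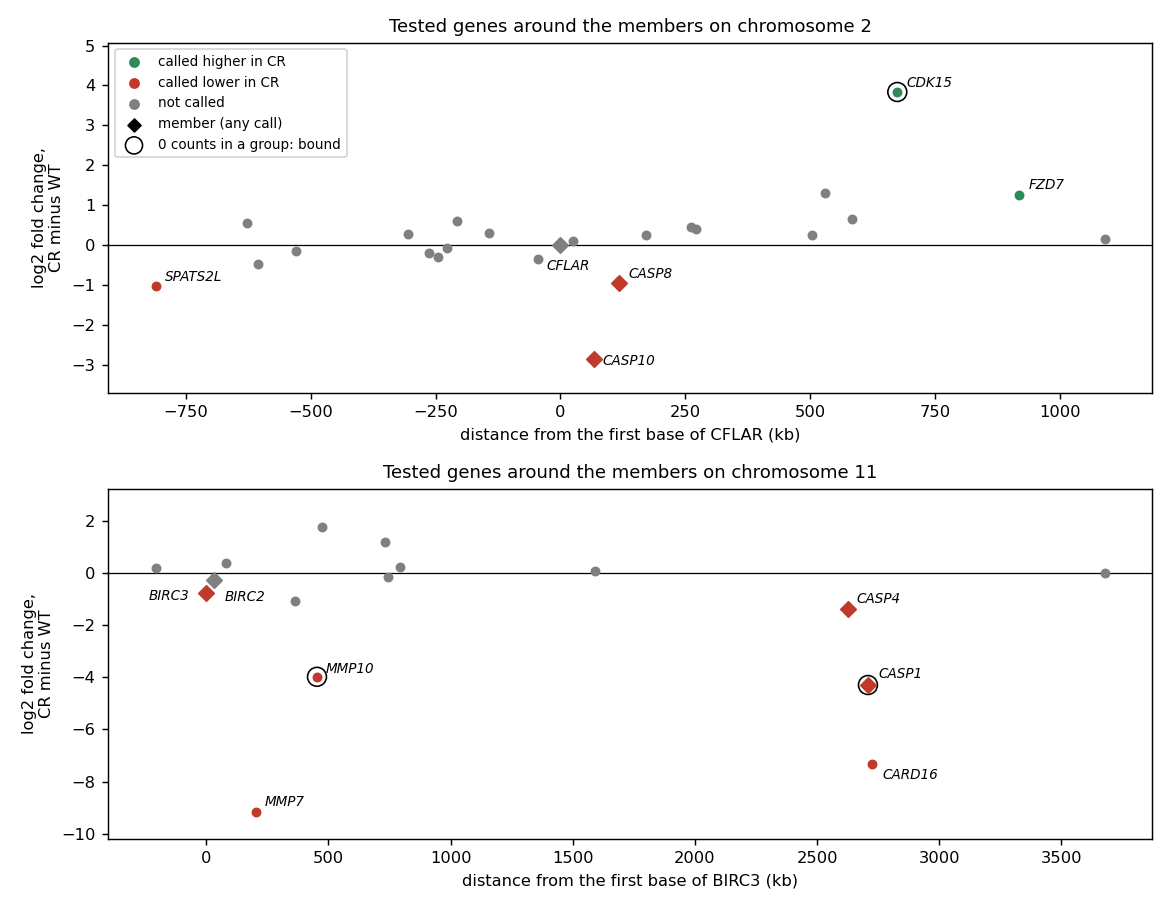
Log2 fold change, CR minus WT, of tested genes within 1000 kb of the chromosome 2 genes (top) or the chromosome 11 genes (bottom), against distance in kb from the first base of CFLAR or BIRC3. Diamonds are the apoptosis genes, red is called lower, green called higher and grey not called, and rings mark genes with 0 counts in a group, drawn at their bound against 3 counts. CASP10 and CASP8 lie below CFLAR, and CASP4 and CASP1 lie below 0.

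Of 66 tested genes in 6 wider lists of the pathway, 3 rose and 4 fell, with a median log2 fold change of -0.04. These are 4.55% higher and 6.06% lower, against 5.44% and 8.1% of all genes tested. Of the genes named from these lists, TNFSF10, TP73, TP63 and BIRC7 passed the low-count filter only through the line in which they were high. For them too a difference was built into admission to the test. Without WT replicate 1 there were 15 higher and 12 lower, without WT replicate 2 18 and 15, and without CR replicate 1 2 were lower. In death receptor signalling 2 of 13 fell and 0 rose. The ligand TNF had 0.597 and 0.736 CPM in CR cells, against 13.3 and 19.9 CPM in WT cells, and fell (log2 fold change -4.63, edgeR quasi-likelihood test, adjusted p = 0.000524). TNFSF10, which encodes TRAIL, had 0 and 4 counts in CR cells, against 46 and 41 in WT cells (adjusted p = 0.0163, edgeR). Both ligands were thus far lower in CR cells, while the receptors FAS and TNFRSF10B were not called, with log2 fold changes of 0.57 (adjusted p = 0.243, edgeR) and -0.42 (0.232).

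Among other caspases and their platforms 1 of 8 rose and 0 fell, against 5.44% higher and 8.1% lower over all genes tested. NLRP1, an inflammasome sensor that recruits caspase-1, had 256 and 236 CPM in CR cells, against 44.3 and 42.5 CPM in WT cells, a 5.68-fold rise (edgeR quasi-likelihood test, adjusted p = 0.000404). GSDME and PIDD1 were not called, with log2 fold changes of 1.26 (adjusted p = 0.107, edgeR) and 1.35 (0.127). NLRP1 thus stood higher in the cells in which CASP1 had 0 counts. Among other inhibitors and BAG proteins 1 of 11 fell and 0 rose. PEA15, an adaptor that binds FADD and caspase-8, had 131 and 136 CPM in CR cells, against 233 and 303 CPM in WT cells (log2 fold change -1.01, adjusted p = 0.0176, edgeR), and the list had 0 genes lower without CR replicate 1 and without CR replicate 2. BIRC5, which encodes survivin, had a log2 fold change of -0.48 (adjusted p = 0.161, edgeR), BIRC7 one of 1.69 (0.177) and AVEN one of -0.54 (0.223).

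Among transcription factors that act on BH3-only genes 2 of 10 rose and 1 fell, against 5.44% higher and 8.1% lower over all genes tested. TP73, a p53 relative, had 80 and 61 counts in CR cells, against 2 and 4 in WT cells (log2 fold change 4.43, edgeR quasi-likelihood test, adjusted p = 0.00295). FOXO1, an activator of BCL2L11 in several cell types, had 62.1 and 57.7 CPM in CR cells, against 26.4 and 17.2 CPM in WT cells (log2 fold change 1.46, adjusted p = 0.0137, edgeR). TP63 had 1 and 1 count in CR cells, against 12 and 33 in WT cells, and was 23.6-fold lower with a counting interval from 6.17 to 201 (adjusted p = 0.0196, edgeR). Without CR replicate 1 the list had 1 gene higher and 0 lower. MYC was not called (log2 fold change 0.50, adjusted p = 0.184, edgeR). Of 15 other BCL2-related and outer membrane genes 0 passed by edgeR, DESeq2 and limma-voom, and 2 had an unadjusted p under 0.05, MOAP1 and TMBIM6 with log2 fold changes of 0.74 (adjusted p = 0.0742, edgeR) and 0.59 (0.0868). BNIP3 and MTCH2 followed at 0.46 and -0.36. Of 9 executioner substrates and nucleases 0 passed by the same tools and 1, DFFA, had an unadjusted p under 0.05 (log2 fold change -0.50, adjusted p = 0.137, edgeR), while PARP1, ACIN1 and AIFM1 had log2 fold changes of 0.26, -0.21 and -0.20.

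Markers of the labelled cell type moved both ways between the lines. Of 10 epithelial and ovarian carcinoma markers 9 were tested, by edgeR's quasi-likelihood test. Of these, 5 fell (KRT7, KRT8, KRT18, MUC16 and MSLN), 2 rose (EPCAM and CDH1) and KRT19 and PAX8 were not called. Over all genes tested 8.1% were called lower and 5.44% higher. KRT7 had 5.26 and 4.79 CPM in CR cells, against 539 and 252 CPM in WT cells, while CDH1 had 258 and 229.7 CPM in CR cells, against 51.6 and 108 CPM in WT cells. WT1 was near 0, with 4 and 0 counts in CR cells and 20 and 8 in WT cells. The list summed to 2808 and 2941 CPM in CR cells and 5457 and 3793 CPM in WT cells. Fibroblast markers summed to 1.15 and 1.64 CPM in CR cells, against 57.3 and 31.5 CPM in WT cells, which was nearly all COL1A1, with COL3A1 at 3 counts or fewer and DCN and LUM at 0 in every library. Endothelial markers summed to 33.4 and 29.8 CPM in CR cells and 67.0 and 85.3 CPM in WT cells. Within that list CDH5 fell, with 0.955 and 1.02 CPM in CR cells, against 41.7 and 46.4 CPM in WT cells, and VWF overlapped. PECAM1 rose, with 95 and 80 counts in CR cells and 3 and 8 in WT cells (log2 fold change 3.89, edgeR quasi-likelihood test, adjusted p = 0.0045). It passed the low-count filter through its CR libraries alone. Leukocyte markers summed to 2.31 and 2.66 CPM in CR cells and 2.18 and 2.01 CPM in WT cells. The part of these markers in the fall of the apoptosis genes was not tested. In RNA of whole cultures, fewer cells that express a gene and less RNA of it per cell cannot be told apart.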

How the data were processed

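The authors deposited whole-number read counts, 1 row per Ensembl gene and 1 column per library, with no normalization per the file headers. A second deposited table gives a normalized signal, which is each count over a single factor for its library. It was not used for tests. The submitters' processing notes name STAR 2.5.1a, HTSeq, DESeq and build GRCh38.p7 without saying what each did. Which annotation release and which strand setting were used in counting is not given in the sources used here. Reads of overlapping genes may therefore be mixed: of the 36 genes, 2 share over 10% of exon bases with a gene on the same strand and 6 with one on the other strand. Rows with no symbol (20988, with 0.436% to 0.535% of counts) stayed in the fit under their identifiers.

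In R 4.3.3, all 4 libraries were fitted with edgeR 4.0.16, with group as its sole term, filterByExpr at a minimum count of 10, TMM factors and a robust two-sided quasi-likelihood test. Benjamini-Hochberg adjustment ran over the 17304 genes tested, with a threshold of 0.05. Standard errors were derived from the F statistic, and 95% intervals from them. Ratios given as folds compare group counts after TMM scaling. TPM uses GENCODE 29 exon-union lengths, found for 57447 of 58051 rows. Alternatives were upper quartile and RLE factors, no filter and a stricter one of 50, DESeq2 1.42.0, limma-voom (limma 3.58.1), a replicate block, each library left out and, added after seeing the data, a length offset and a crossed block. With a library left out, 1 line keeps a lone library, which is assumed to vary like the other line. The code was tested on simulated data. With no molecular identifiers, intervals on counts and floors cover counting error only.

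The 36 genes and the wider lists were chosen with earlier results of these data known. Genes called, MCL1, BCL2L1, BCL2, BAX, BAK1, XIAP, CASP9, APAF1, BCL2L11 and the most abundant gene of each class per exon-union length in WT cells are given in full, and from each wider list the 4 genes of smallest adjusted p are named. A gene that meets this rule is not reported here.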

Additional observations from a re-analysis of the deposited data

How the results depend on the processing

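CASP10 and CASP1 were called lower under every alternative that tested them. No label says that equal replicate numbers pair libraries across the lines. Deviations of the libraries numbered 1 from their group means had a correlation of -0.174 over 17304 genes. With 2 libraries per line this cannot decide whether a culture day or batch was shared. With a replicate block, 1 of the 34 genes was higher (BCL2L10) and 5 lower, BIRC3 being lost at an edgeR adjusted p of 0.0527, while 1258 of all genes were higher and 1517 lower, and 2 of the other caspases and platforms were higher. With the numbers crossed, 1 of the apoptosis genes was higher and 6 were lower, 1671 of all genes were higher and 1803 lower, and 8 genes of the wider lists were higher. With no low-count filter 1454 of all genes, 1 apoptosis gene and 6 genes of the wider lists were higher, 2 each in the other BCL2-related genes and the caspase platforms. DESeq2 gave 2 in the platforms. The stricter filter left 2 genes of the wider lists lower, 1 of them in death receptor signalling and 0 among the transcription factors. Leaving out a library gave 537 to 3864 of all genes higher and 883 to 4015 lower, 0 to 10 apoptosis genes higher and 2 to 15 lower, and 2 to 18 genes of the wider lists higher and 2 to 15 lower. The log2 fold change then ranged from -0.29 to 0.10 for BCL2, -0.28 to 0.20 for BAX, -0.12 to 0.38 for BAD, -0.40 to 0.77 for APAF1, -0.16 to 1.02 for XIAP, -0.51 to 0.87 for BIRC6 and -0.12 to 0.13 for CFLAR. CFLAR was at -0.00025 with no filter and -0.00011 with DESeq2, and DIABLO at 0.011 with upper quartile factors and 0.039 with a length offset. With the longest transcript as length, the median level in CR cells was 18.0 TPM, against 14.9 with the exon union. Summed levels were then 348.0 TPM in CR cells and 328 TPM in WT cells for the anti-apoptotic genes and, for the effectors, 236.2 TPM in CR cells and 267 TPM in WT cells. The causes of these shifts were not tested. Depth limits BCL2A1, CASP5, BCL2L10 and CASP1 most.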
